A study of Homo sapiens with 16 samples.

Results

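The comparison described here set extracellular vesicles (EVs) of PC3 cells that were collected with an aqueous two-phase system (ATPS) against EVs of the same line in the libraries labelled VC. It took in 4 of the 16 small RNA libraries of the series, those labelled PC3 ATPS and PC3 VC, with 2 libraries for each method. PC3 is an established human prostate cancer line, labelled wild type, epithelial and without treatment. The cells of both groups were starved in serum-free medium before the conditioned medium was taken. In ATPS, polyethylene glycol and dextran form separate phases in the medium, EVs gather in the small dextran-rich phase during a slow spin, and dextranase removes the dextran before RNA is extracted with TRIzol. The labels do not spell out VC. It is read here as ultracentrifugation, since the design of the series names ultracentrifugation, ATPS and the Qiagen exoRNeasy kit and no other label fits the first of these. The labels do not say whether the 2 libraries of a method came from separate cultures. The p-values of the main fit below reflect only how far the 12 EV libraries of the series scattered within their groups. That scatter may be technical, and part of it comes from libraries outside the 4 compared. EVs of the breast cancer line MDA-231, collected in the same ways, served as a second line.

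EVs are membrane-bound particles that cells release and that carry RNA protected from nucleases. The paper proposes that ATPS also takes in cell-free RNA, so a level in an ATPS library need not come from EVs alone. Mature microRNAs (miRNAs) are short RNAs cut from either arm of a hairpin precursor, and bases 2 to 8 from their 5′ end, the seed, direct the silencing complex to its targets. Small nucleolar RNAs (snoRNAs) guide the modification of ribosomal RNA, C/D box snoRNAs for methylation of ribose and H/ACA box snoRNAs for the change of uridine to pseudouridine, and most are released from introns of host genes. Circular RNAs (circRNAs) are closed by a back-splice between exons of a host transcript. A read that does not cross that junction cannot be told from a read of any other RNA of the same locus.

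The miRNAs on which the results turn are shown first, as RNA from 5′ to 3′, with the seed in capitals. The sequences are those of RefSeq on GRCh38.p14, which held 64 of the 72 tested entries with a mature name. The 2 arms of the miR-27a hairpin have unrelated seeds, while miR-222-3p and miR-221-3p share one, as do miR-103a-3p and miR-107, which differ in a single base (G22C, counted from the 5′ end of miR-103a-3p).
hsa-miR-27a-5p: aGGGCUUAgcugcuugugagca
hsa-miR-27a-3p: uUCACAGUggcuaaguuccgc
hsa-miR-21-5p: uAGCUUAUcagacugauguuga
hsa-miR-182-5p: uUUGGCAAugguagaacucacacu
hsa-miR-222-3p: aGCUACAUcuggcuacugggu
hsa-miR-221-3p: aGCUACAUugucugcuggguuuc
hsa-miR-103a-3p: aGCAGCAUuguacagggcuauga
hsa-miR-107: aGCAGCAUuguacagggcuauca
hsa-miR-30a-5p: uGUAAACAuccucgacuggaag

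The precursors of miR-27a and miR-21 are given next because the 2 called miRNA entries come from them. Mature miR-27a-5p and miR-27a-3p are in capitals in the first, which lies at chr19:13836440-13836517 on the minus strand in MIR23AHG, a long non-coding host gene, and mature miR-21-5p is in capitals in the second, at chr17:59841266-59841337 on the plus strand, where it overlaps an exon of VMP1.
hsa-mir-27a hairpin: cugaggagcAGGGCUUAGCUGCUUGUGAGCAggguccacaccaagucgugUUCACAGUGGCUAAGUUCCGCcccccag
hsa-mir-21 hairpin: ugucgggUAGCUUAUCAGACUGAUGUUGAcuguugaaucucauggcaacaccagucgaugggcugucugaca

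The snoRNA genes that stood out are shown as DNA, from the GENCODE v44 transcripts on GRCh38. SNORA66, an H/ACA snoRNA in an intron of the ribosomal protein gene RPL5 (chr1:92840719-92840851, plus strand), has its ACA box in capitals. SNORD116-14 (chr15:25080142-25080233, plus strand) and SNORD116-17 (chr15:25083588-25083679, plus strand) are C/D box copies of a cluster in SNHG14, with the core of the C box (TGATGA) and the D box (CTGA) in capitals. These 2 copies differ at 1 of 92 positions (T74C, counted from the 5′ end of SNORD116-14), so a short read can map to both.
SNORA66: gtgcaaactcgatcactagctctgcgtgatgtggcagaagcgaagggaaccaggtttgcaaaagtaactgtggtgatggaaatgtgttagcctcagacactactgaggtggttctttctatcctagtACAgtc
SNORD116-14: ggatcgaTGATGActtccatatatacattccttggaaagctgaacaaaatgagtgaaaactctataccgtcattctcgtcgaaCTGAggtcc
SNORD116-17: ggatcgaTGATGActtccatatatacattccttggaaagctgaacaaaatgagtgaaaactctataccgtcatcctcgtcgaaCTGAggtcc

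Depth differed between the methods. The ATPS libraries held 5027 and 4612 miRNA reads, against 14612 and 14515 in the VC libraries. They held 43029 and 41519 snoRNA reads, against 100919 and 94210 in VC. Every ATPS library was thus shallower than every VC library in both classes, and 1 read was worth 199 and 217 TPM of miRNA in ATPS, against 68.4 and 68.9 TPM in VC. The values are named TPM in the files, but each is a read count scaled to a fixed total over its own RNA class and library, so a level here is a share of that class. Per the study's methods, final libraries were set to the same concentration before pooling, so depth does not measure how much RNA went in. The paper reports a higher RNA yield from PC3 medium with ATPS than with ultracentrifugation. Such data give neither the number of EVs in a preparation nor the RNA per EV. Only short reads were kept by the authors, so a snoRNA level is that of short fragments. Epithelial marker miRNAs were nearly absent: of 5 such entries in the table, only miR-200b-3p had a read, 1 in ATPS 2 and 1 in VC 1. The blood cell marker miR-486-5p had 1 read in ATPS 1 and 5 in VC 2, neuronal markers had 0 and 2 reads in the ATPS libraries and 6 and 7 in the VC libraries, and endothelial and liver markers had none.

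Fewer RNA species were seen in ATPS EVs, and for miRNAs this went with depth. Of miRNA entries, 169 and 185 had a read in the ATPS libraries, against 282 and 256 in the VC libraries. When all 4 libraries were thinned to 4612 reads, the mean numbers over 100 draws became 164 and 185 in ATPS, against 177 and 164 in VC, and the groups overlapped. For snoRNAs, 261 and 255 entries were seen in ATPS and 306 and 294 in VC, which thinning to 41519 reads changed to 260 and 255 in ATPS, against 276 and 272 in VC. The snoRNA difference became smaller with equal depth, but the groups stayed apart. An exact two-sided permutation test of 2 libraries against 2 cannot give a p below 0.333, and it gave 0.333 for each of these unthinned differences, as for every other library-level difference below whose groups did not overlap.

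The ratio of miRNA to snoRNA reads does not depend on the scaling within a class. It was 0.117 and 0.111 miRNA reads per snoRNA read in ATPS, against 0.145 and 0.154 in VC, lower in both ATPS libraries than in either VC library (0.114 ± 0.00406 in ATPS and 0.149 ± 0.00656 in VC, SD, n = 2 each). Within the snoRNA class, H/ACA snoRNAs made up 2.48% (95% exact binomial interval 2.34% to 2.64%) and 2.12% (1.98% to 2.26%) of reads in ATPS, against 2.79% (2.69% to 2.90%) and 2.80% (2.69% to 2.90%) in VC. Without SNORA66, described below, the shares were 2.396% and 2.018% in ATPS, against 2.406% and 2.432% in VC, and the difference was -0.21 percentage points in place of -0.49. C/D box snoRNAs held nearly all the rest, 96.9% and 97.3% in ATPS and 96.6% and 96.7% in VC. The intervals cover counting error only.

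The 10 most abundant entries over the 4 libraries held 84.6% and 84.5% of miRNA reads in ATPS, against 84.1% and 84.4% in VC. miR-182-5p, a member of the miR-183, miR-96 and miR-182 cluster, was the first of them. It stood at 549433 and 562229 TPM in ATPS, against 475568 and 493421 TPM in VC. Both ATPS values were above both VC values, but the log2 fold change of 0.20 (SE 0.29) did not pass the test (adjusted p = 0.878 by limma). miR-222-3p, which like its cluster partner miR-221-3p targets the cell cycle inhibitor p27, had 56694 and 30789 TPM in ATPS and 50917 and 47882 TPM in VC, so the groups overlapped. miR-361-3p, cut from a hairpin in an intron of CHM, also overlapped, at 38990 and 40113 TPM in ATPS and 44073 and 36238 TPM in VC.

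Of 110 miRNA entries with at least 10 reads over the 4 libraries, limma called 1 higher (0.909%) and 1 lower (0.909%) in ATPS at an adjusted p under 0.05, and 11 had an unadjusted p under 0.05. Without a test, 21 entries (19.1%) had both ATPS values above both VC values and 31 (28.2%) had both below. The fold changes are differences of log2(TPM + 100), which understates the change of low entries, and their median over the 110 entries was -0.20. The plot of fold change against level shows how far the called entries stood from the rest.

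**Figure D1:**
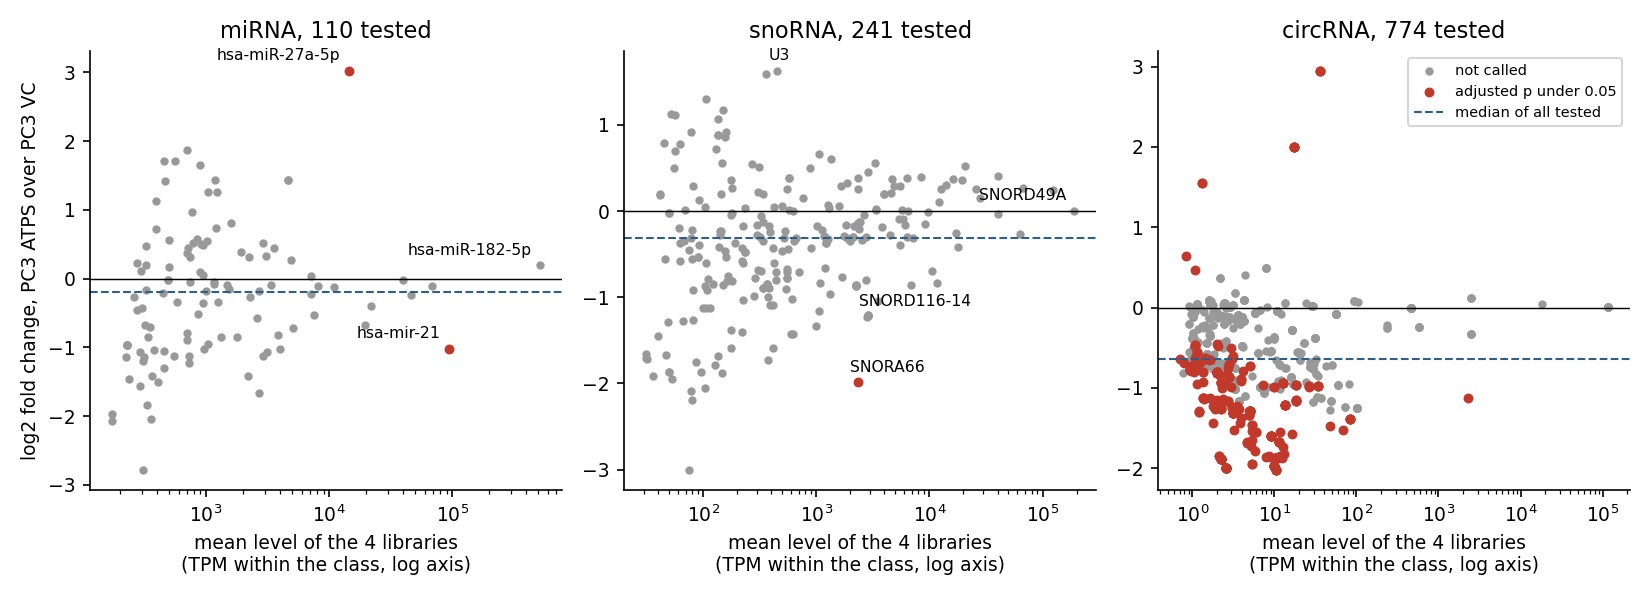
Log2 fold change of PC3 ATPS over PC3 VC EVs (vertical axis) against the mean level of the 4 libraries in TPM within the RNA class (horizontal log axis), 1 point for each tested entry, with called entries (adjusted p under 0.05) in red and the median of all tested entries as a dashed line. hsa-miR-27a-5p stands alone at 3.02 among miRNAs, SNORA66 is the called snoRNA at -1.98, and most circRNA points lie below 0.

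The entry called higher was miR-27a-5p, the passenger arm of miR-27a, whose other arm, miR-27a-3p, is the one usually kept by the silencing complex. It had 26656 and 24935 TPM in ATPS (134 and 115 reads), against 2874 and 3307 TPM in VC (42 and 48 reads). Both ATPS libraries held more of its reads than either VC library although they were shallower, and the means of 25796 ± 1217 and 3091 ± 306 TPM (SD, n = 2 each) differed 8.35-fold. The log2 fold change was 3.02 (SE 0.38, adjusted p = 1.95e-05 by limma), and it passed the threshold in each of the 25 alternatives, with adjusted p between 1.95e-17 and 0.00813. miR-27a-3p, in contrast, had 6565 and 8023 TPM in ATPS (33 and 37 reads), against 7391 and 6752 TPM in VC (108 and 98 reads), with a log2 fold change of 0.04 (SE 0.66, adjusted p = 0.984 by limma).

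**Figure D2:**
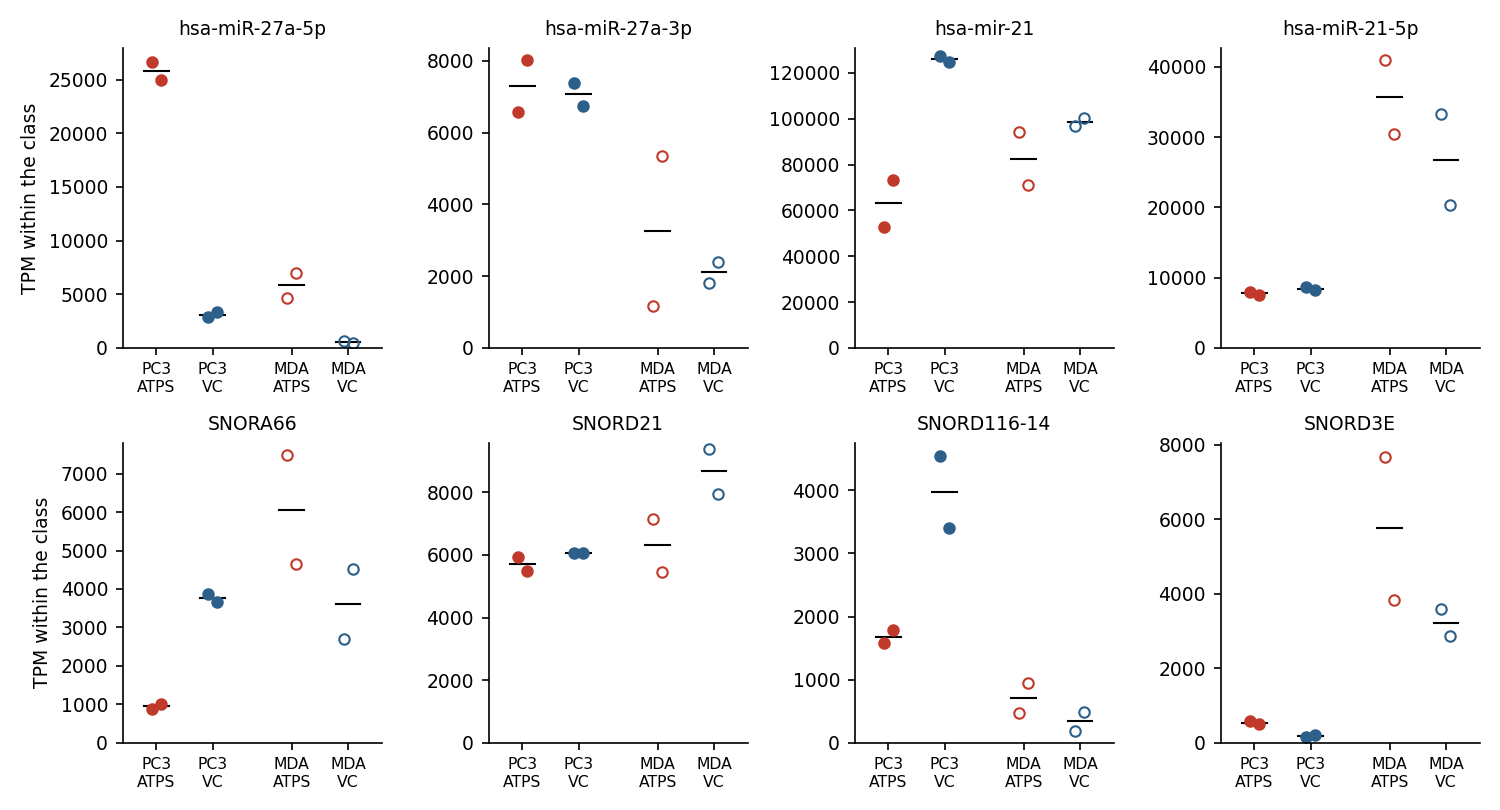
Levels in TPM within the RNA class (vertical axes, each starting at 0) of 8 entries in the single libraries of PC3 ATPS, PC3 VC, MDA-231 ATPS and MDA-231 VC EVs, with 2 points for each group and a bar at their mean. hsa-miR-27a-5p is higher in ATPS in both lines, while the SNORA66 points of ATPS lie below those of VC in PC3 (883 and 1012 TPM in ATPS) and above them in MDA-231.

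The balance of the miR-27a arms therefore differed with the method. miR-27a-5p made up 80.2% (95% exact binomial interval 73.4% to 86.0%) and 75.7% (68.0% to 82.3%) of the reads of both arms in PC3 ATPS, against 28.0% (21.0% to 35.9%) and 32.9% (25.3% to 41.1%) in PC3 VC. MDA-231 EVs had the same order, with 80.0% and 56.7% in ATPS against 27.4% and 15.8% in VC, and the fold change of miR-27a-5p in that line was 3.14 on the log2 scale. In the PC3 EVs from the exoRNeasy kit the share was 98.3% and 96.3%, and in PC3 cells it was 0.741% (1 read, beside 134 of the 3p arm) and 1.33% (6 reads, beside 444). The level of miR-27a-5p in PC3 cells was 29.1 and 61.6 TPM, far below that in any PC3 EV library.

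**Figure D3:**
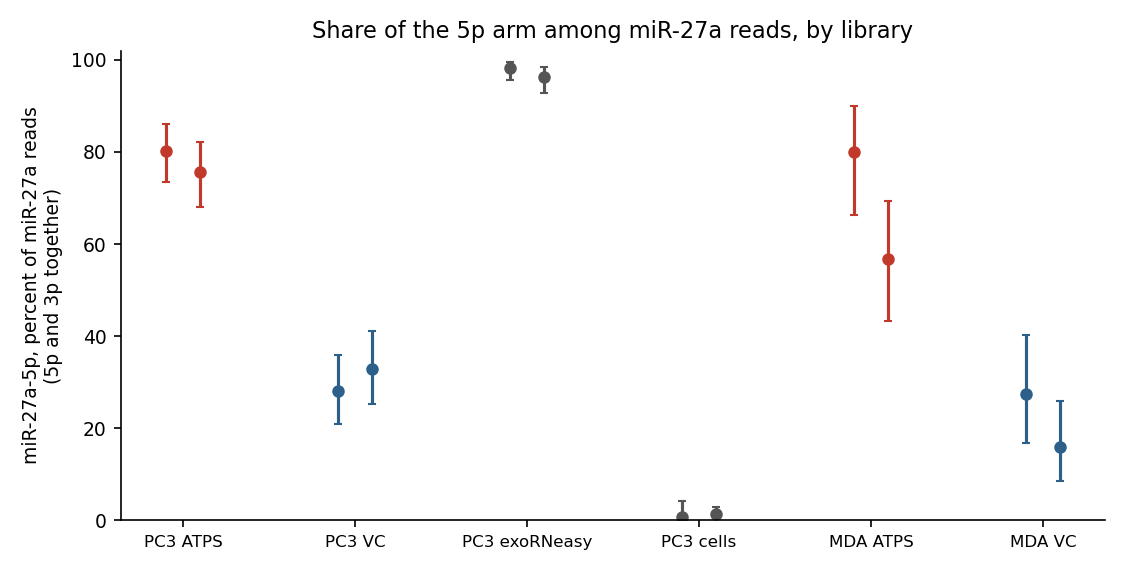
Reads of miR-27a-5p as a percentage of the reads of both miR-27a arms (vertical axis) in single libraries of 6 groups, with 95% exact binomial intervals. The 2 PC3 ATPS libraries sit at 80.2% and 75.7%, above the 2 PC3 VC libraries at 28.0% and 32.9%, and the PC3 cells sit near 0.

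Other miRNAs with reads on both arms gave smaller differences. Of the 6 with at least 20 reads over the 4 libraries and at least 5 on the rarer arm, miR-425 had a 5p share of 94.5% and 100% in ATPS, against 98.8% and 100% in VC. miR-221 had 40.0% and 54.5% in ATPS, against 64.6% and 56.9% in VC. miR-423 had 44.4% and 25.0% in ATPS, against 9.30% and 11.1% in VC, on 4 and 2 reads of the 5p arm in ATPS and 4 and 7 in VC. The difference was 47.5 percentage points for miR-27a and 24.5 for miR-423, and between -17.5 and -0.821 for the other 4.

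The entry called lower was hsa-mir-21, named for the hairpin rather than for a mature arm. What separates hairpin-named from mature-named entries in the counting is not given in the sources used here. It had 52914 and 73070 TPM in ATPS (266 and 337 reads), against 127224 and 124561 TPM in VC (1859 and 1808 reads), or 62992 ± 14252 and 125893 ± 1883 TPM (SD, n = 2 each). The log2 fold change was -1.02 (SE 0.24, adjusted p = 0.0246 by limma). In MDA-231 EVs it was -0.27, with 94010 and 70855 TPM in ATPS, against 96644 and 100501 TPM in VC. The PC3 EVs from the exoRNeasy kit had 57558.5 and 64593.3 TPM of hsa-mir-21, near the PC3 ATPS values. The mature miR-21-5p, an abundant miRNA of many cancer cells, had 7957 and 7589 TPM in ATPS and 8623 and 8198 TPM in VC, a log2 fold change of -0.11 (SE 0.32, adjusted p = 0.931 by limma). The call of hsa-mir-21 was lost by limma without VC 1 (log2 fold change -1.001, adjusted p = 0.140), VC 2 (-1.03, 0.152) or ATPS 1 (-0.78, 0.348), and with all 16 libraries in the fit (-1.02, 0.945). It was also lost after median centring (-0.64, adjusted p = 0.531) or quantile normalization (-0.47, 0.648) by limma, and by DESeq2 (-0.89, 0.499).

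Hairpin-named entries as a whole held 19.7% and 22.4% of miRNA reads in ATPS, against 29.3% and 27.8% in VC, a difference of -7.51 percentage points. Without hsa-mir-21 the difference was -1.22 percentage points. Of 38 tested hairpin-named entries, 3 had both ATPS values above both VC values, beside 19.1% of all tested miRNAs, and 11 had both below, beside 28.2%, with a median log2 fold change of -0.47, beside -0.11 for the 72 mature-named entries. The share with both below was thus near that of all tested miRNAs. The 38 entries are not independent, since they held 33 distinct sets of values. hsa-mir-3648-1 and hsa-mir-3648-2, both among those above, had the same values. Some hairpin entries lie over other small RNAs, such as hsa-mir-7641-2 over ribosomal RNA. It had 68431 and 62879 TPM in ATPS, against 69874 and 71512 TPM in VC. A separate list of 38 entries over other small RNAs also includes mature-named ones such as miR-663b. It held 10.8% of miRNA reads in each ATPS library and 11.1% and 10.8% in VC. In that list, 27 entries had a read in the 4 libraries and 18 were tested.

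No other miRNA passed the test. miR-30a-5p came nearest among the higher ones, with 1790 and 1735 TPM in ATPS on 9 and 8 reads and 411 and 827 TPM in VC on 6 and 12 reads (adjusted p = 0.0607 by limma). It passed in 9 of 24 alternatives. Among entries without a read in ATPS, miR-3615 had the most VC reads, 6 and 12, and pooled over the libraries it was at least 1.99-fold lower in ATPS against a floor of 3 reads over that group (adjusted p = 0.0607 by limma). hsa-mir-181b-1, chosen after its values were seen, had 995 and 1518 TPM in ATPS, against 3901 and 4340 TPM in VC (adjusted p = 0.152 by limma). That entry passed in 7 of 25 alternatives, among them edgeR (adjusted p = 0.0272). In the other direction, no entry without a VC read had more than 4 ATPS reads. Species seen in a single method thus carried little of the signal: miRNAs without an ATPS read held 1.09% of the VC signal, and miRNAs without a VC read held 0.578% of the ATPS signal.

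The members of a seed family could differ in sign. Of 10 seeds shared by at least 2 tested miRNAs, the let-7 seed had 5 members with log2 fold changes between -1.13 (let-7f-5p) and 1.25 (let-7b-5p), none called. miR-103a-3p and miR-107, whose nearly identical sequences are given above, had 1790 and 2168 TPM and 1591 and 1951 TPM in ATPS, against 3627 and 4960 TPM and 3627 and 4340 TPM in VC. Short reads cannot always tell them apart, and neither was called (adjusted p = 0.468 and 0.653 by limma). miR-221-3p and miR-222-3p had log2 fold changes of -0.10 and -0.24. Grouped by name, the 8 tested members of the miR-23, miR-24 and miR-27 group had a median of -0.64 despite the rise of miR-27a-5p, and 1 was called. The group includes miR-23b-3p and is not a single genomic cluster. miR-23a-3p, cut from the same primary transcript as miR-27a-5p, had 2387 and 1735 TPM in ATPS, against 3285 and 2894 TPM in VC. The hypoxia-linked miR-210-3p had 3581 and 3252 TPM in ATPS, against 2874 and 2549 TPM in VC (adjusted p = 0.959 by limma). miR-16-5p had no ATPS read and 1 VC read.

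In the snoRNA class, the profile was led by C/D box snoRNAs. SNORD49A, hosted by SNHG29, had 185131 and 197669 TPM in ATPS and 193977 and 187528 TPM in VC, and the groups overlapped. SNORD2, hosted by the translation factor gene EIF4A2, had 130238 and 136106 TPM in ATPS, against 114765 and 109659 TPM in VC, with a log2 fold change of 0.25 (adjusted p = 0.686 by limma). SNORD30, hosted by SNHG1, had 47061 and 45738 TPM in ATPS, against 32967 and 36865 TPM in VC (log2 fold change 0.41, adjusted p = 0.432 by limma), while its neighbour SNORD26 had 58240 and 56817 TPM in ATPS, against 68074 and 70067 TPM in VC (log2 fold change -0.26, adjusted p = 0.658 by limma). Of these 4, SNORD30 had the highest ratio of means, 1.33, and SNORD26 the lowest, 0.833. The 10 most abundant entries held 64.0% and 65.0% of snoRNA reads in ATPS, against 58.4% and 60.2% in VC.

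Of 241 tested snoRNAs, 1 was called lower in ATPS (0.415%) and 0 were called higher (0.0%), while 29 had an unadjusted p under 0.05, 4 of them higher and 25 lower. Both ATPS values lay below both VC values for 116 snoRNAs (48.1%) and above for 41 (17.0%), and the median log2 fold change was -0.31. The spread in the test came from all 12 EV libraries. With the 6 PC3 EV libraries alone, limma called 10 snoRNAs higher and 23 lower.

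The called snoRNA was SNORA66. It had 883 and 1012 TPM in ATPS (38 and 42 reads), against 3874 and 3662 TPM in VC (391 and 345 reads), or 947 ± 90.8 and 3768 ± 150 TPM (SD, n = 2 each), a 3.98-fold lower level in ATPS. The log2 fold change was -1.98 (SE 0.36, adjusted p = 0.00425 by limma). The call was lost without VC 1 (adjusted p = 0.120), VC 2 (0.0776) or ATPS 1 (0.0840) and after median centring (0.0626), with log2 fold changes between -2.02 and -1.62 in those fits. SNORD21, which was chosen after its values were seen, is a C/D box snoRNA of the same host gene RPL5 (chr1:92837289-92837383, plus strand) and had 5950 and 5492 TPM in ATPS, against 6074 and 6072 TPM in VC, a log2 fold change of -0.09 (adjusted p = 0.891 by limma). The 2 snoRNAs of this host therefore had different fold changes, though the difference between them was not tested. They also differed in PC3 cells. SNORA66 had 61.0 and 50.8 TPM there, below its level in every PC3 EV library, whereas SNORD21 had 4341 and 4168 TPM.

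In the other line, the SNORA66 values of ATPS lay above those of VC. In MDA-231 EVs it had 7477 and 4646 TPM in ATPS, against 2705 and 4533 TPM in VC. The difference between the lines in the log2 fold change was -2.73 (SE 0.50, adjusted p = 0.00588 by limma), the 1 of 241 such differences that passed (0.415%), and it passed in 22 of 23 alternatives, the exception being the fit without PC3 VC 1 (adjusted p = 0.0565). For miRNAs, 0 of 110 differences between the lines passed (0.0%) by limma, edgeR or DESeq2, with 4 at an unadjusted p under 0.05 by limma, and for circRNAs 0 of 774 (0.0%) passed by limma. The circRNA count did not hold under other settings, with 154 entries at an unadjusted p under 0.05 in the same limma fit, 39 called by edgeR, 54 by DESeq2 and 236 by limma with a replicate block. The PC3 EVs from the exoRNeasy kit had 3818 and 4494 TPM of SNORA66, near the VC values.

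The copies of SNORD116, an imprinted snoRNA family of the Prader-Willi region, all lay below VC in ATPS, but none was called. SNORD116-14 had 1580 and 1782 TPM in ATPS (68 and 74 reads), against 4538 and 3407 TPM in VC (458 and 321 reads), a log2 fold change of -1.22 (SE 0.49) that did not pass the test (adjusted p = 0.298 by limma). All 24 tested copies had both ATPS values below both VC values, beside 48.1% of all snoRNAs, with a median of -1.15 beside -0.31. The copies are not independent, since they held only 18 distinct sets of values. Summed over the family, there were 747 and 804 reads in ATPS, or 1.74% and 1.94% of snoRNA reads, against 4470 and 3274 reads in VC, or 4.43% and 3.48%. None of the 24 was called in the fit of 12 libraries, and 12 were called lower in the fit of the 6 PC3 EV libraries. No SNORD115 copy had a read. In MDA-231, 22 of the 24 had a positive fold change, with a median of 1.09, and the smallest adjusted p for a difference between the lines was 0.102 by limma. There SNORD116-14 had only 72 and 58 reads in ATPS and 75 and 83 in VC. Those libraries held 151267 and 60912 snoRNA reads in ATPS, against 400429 and 169221 in VC. MDA-231 cells had 23 and 2 reads of it (5.90 and 120 TPM), and PC3 cells 2506 and 2303 TPM. How far low counts and unequal depth set the MDA-231 fold changes was not tested.

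Among snoRNAs hosted by RPL13A, 3 of 4 had both ATPS values below both VC values, beside 48.1% of all snoRNAs, with a median log2 fold change of -0.91 and none called. SNORD33 had 2626 and 1951 TPM in ATPS, against 4063 and 5360 TPM in VC (adjusted p = 0.232 by limma), and SNORD35A had 349 and 313 TPM in ATPS, against 981 and 839 TPM in VC (adjusted p = 0.258 by limma). SNORD32A of the same host overlapped between the methods. The U3 family, which guides cleavage of the precursor of ribosomal RNA, had entries on both sides. SNORD3A, one of its genes, had 2161 and 2264 TPM in ATPS, against 3191 and 2452 TPM in VC, whereas SNORD3E, like the entry named U3 chosen after the values were seen, had 581 and 506 TPM in ATPS, against 149 and 202 TPM in VC (log2 fold change 1.59, adjusted p = 0.232 by limma). The entry named U3 in the table had 651 and 723 TPM in ATPS, against 198 and 234 TPM in VC (adjusted p = 0.232 by limma). These entries belong to the same family, but their sequences were not compared here. Reads that map to several places were kept, with more weight on unique ones. The values are therefore uncertain where a read maps to more than a single member.

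**Figure D4:**
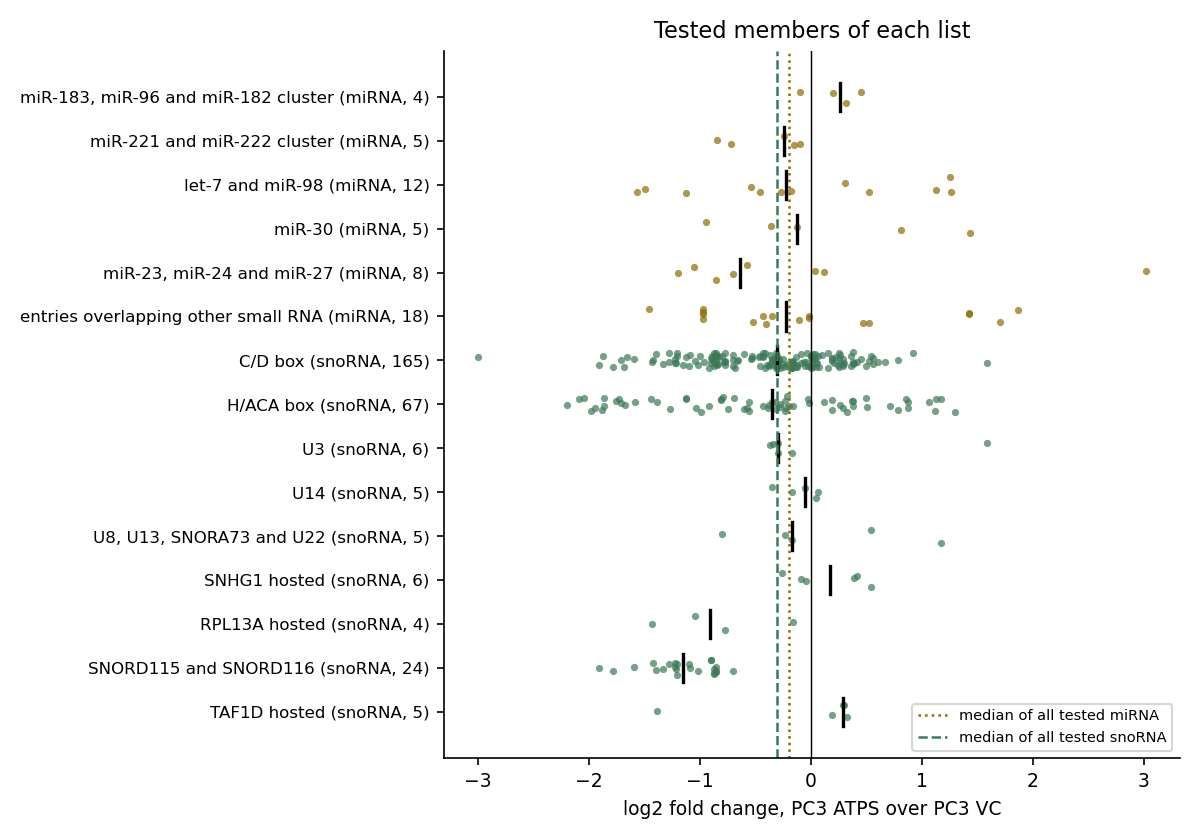
Log2 fold change of PC3 ATPS over PC3 VC (horizontal axis) of the tested members of 15 gene lists, 1 point for each member, with a black bar at the median of the list and the medians of all tested miRNAs and snoRNAs as vertical lines. All 24 SNORD116 copies lie left of 0, with a median of -1.15, while most other lists spread to both sides.

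SNORD113 and SNORD114, C/D box snoRNAs of another imprinted cluster, had the lowest list median, -2.33 over 2 tested members, on few reads. SNORD113-9 had 1 and 0 reads in ATPS, against 16 and 11 in VC, and was not called (adjusted p = 0.232 by limma). The 165 tested C/D box snoRNAs had a median log2 fold change of -0.30 and the 67 H/ACA snoRNAs -0.35, with SNORA66 the 1 called. The snoRNAs of SNHG1 had a median of 0.18 over 6 members, and the U14 family, which guides methylation and folding of 18S ribosomal RNA, had -0.05 over 5. Small Cajal body-specific RNAs (scaRNAs), which guide modification of spliceosomal RNAs, had 9 and 11 reads in ATPS, against 28 and 22 in VC. SNORA74A, an H/ACA snoRNA chosen after its values were seen, had 1 read in each ATPS library, against 12 and 14 reads in VC (adjusted p = 0.232 by limma).

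The circRNA table held by far the most reads, but these sat in few entries. A group of 8 entries, whose counts were equal to within 2 reads in these 4 libraries, held 94.3% and 94.6% of the circRNA total in ATPS, against 93.2% and 94.2% in VC, and in PC3 cells the same 8 held 1.64% and 1.57%. Whether 1 read was counted for several entries was not tested, so the totals are not taken as numbers of reads sequenced. The ratio of miRNA reads to reads of the most abundant circRNA entry was, on the means of 2 libraries each, 2.60 times as high in VC as in ATPS, and that of snoRNA reads 1.99 times as high. Relative to that entry, both ATPS libraries thus had fewer snoRNA and miRNA reads than either VC library.

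Of circRNA entries, 27602 and 29379 had a read in ATPS, against 50918 and 49656 in VC. The difference remained after thinning to equal totals, with 27602 and 27935 in ATPS, against 47435 and 44540.0 in VC, as means over 5 draws. Thinning took each count as separate reads. Since that was not tested, it cannot show what equal numbers of sequenced reads would give. Most of these entries were very low, and 774 reached 1 TPM in at least 2 of the 4 libraries. Of these, limma called 11 higher (1.42%) and 262 lower (33.9%) in ATPS on log2(TPM + 1), with a median log2 fold change of -0.64 over all 774. Both ATPS values lay below both VC values for 518 entries (66.9%) and above for 39 (5.04%). The balance differed between settings. Median centring called 11 higher and 254 lower, and totals without the 8 most abundant entries, an alternative chosen after seeing the data, 11 higher and 251 lower. With the test changed as well as the scaling, edgeR with TMM moved the median to -0.02 and called 11 higher and 75 lower, and DESeq2 with its size factors called 125 higher and 129 lower. Quantile normalization with limma called 122 higher and 118 lower. The called entries were also not independent, since the 774 held 315 distinct sets of values and the 262 lower ones held 110.

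The files do not pair circRNA entries with gene names. Of the called entries, 7 higher and 61 lower ones were eligible to be named. Among the 7, the largest rise was in hsa_circ_0052656 and hsa_circ_0052657. They had the same values, 66.3 and 62.7 TPM in ATPS, against 8.41 and 6.63 TPM in VC. They were 8.58-fold higher in ATPS (log2 fold change 2.95, SE 0.41, adjusted p = 0.000748 by limma). Among the 61, the largest fall was in hsa_circ_0091356 and hsa_circ_0091357. These again had the same values, 3.57 and 3.34 TPM in ATPS, against 21.2 and 13.8 TPM in VC (log2 fold change -2.02, SE 0.40, adjusted p = 0.00441 by limma). Both pairs had the same direction in MDA-231, with log2 fold changes of 1.12 for the first pair and -3.83 for the second.

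Some circRNA entries had the read counts of a snoRNA. Of the 774, 44 matched a snoRNA, with at least 100 reads over the 4 libraries, to within 1% or 1 read in each of the 12 EV libraries, 23 snoRNAs in all, and 7 of the 44 were identical in all 12. Of the 262 entries called lower, 18 matched (6.87%), beside 5.68% of all tested entries. SNORA66 was among the 23, with 38 and 42 reads in ATPS and 391 and 345 in VC in the snoRNA table, as were SNORD116-14, SNORD63, SNORD49A and SNORD2. Whether the counts come from the same reads was not tested.

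These pairs show how a fold change rests on the class it is scaled to. SNORD63 had 38672 and 40704 TPM in ATPS, against 41578 and 39837 TPM in VC in the snoRNA table, a log2 ratio of the means of -0.04. The mean of the 10 circRNA entries with its counts was 11.7 and 10.9 TPM in ATPS, against 25.1 and 20.7 TPM in VC, a log2 ratio of -1.02. Over the 23 pairs the ratio in the circRNA table minus that in the snoRNA table had a median of -0.98 on the log2 scale and lay between -1.01 and -0.95. The pairs were chosen for equal counts, so this offset follows from the totals of the 2 classes and is not a separate result.

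**Figure D5:**
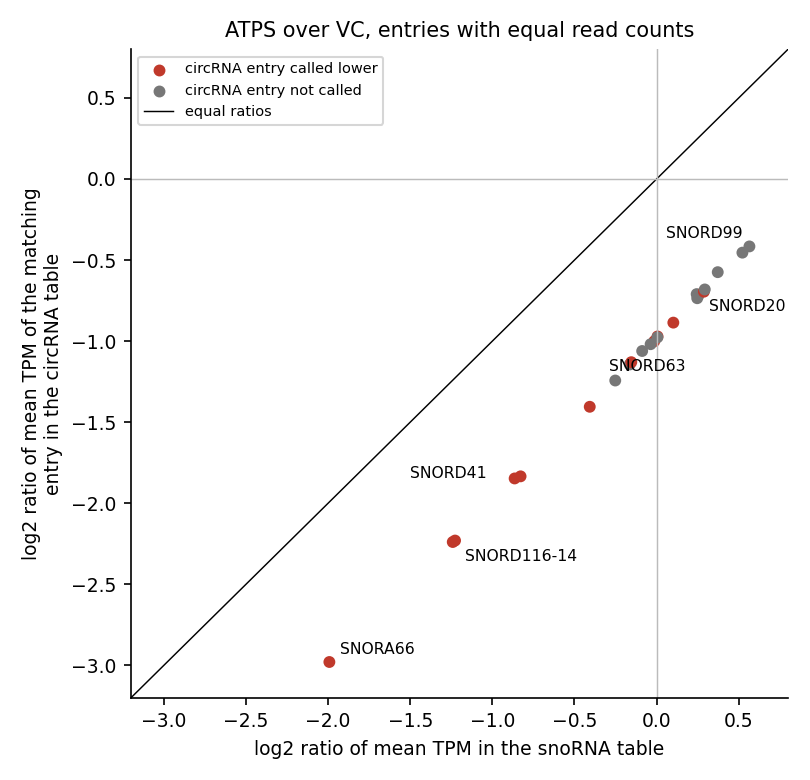
Log2 ratio of mean TPM, PC3 ATPS over PC3 VC, for 23 snoRNAs in the snoRNA table (horizontal axis) and for the circRNA entries with equal read counts in the circRNA table (vertical axis), with entries called lower in red. All 23 points lie below the line of equal ratios, with differences between -1.01 and -0.95, an offset that equal counts and different class totals fix.

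Whole profiles of the 2 methods were about as alike as the ATPS replicates for miRNAs and snoRNAs, and less alike than replicates for circRNAs. Over the 241 snoRNAs, the Pearson correlation of log2 values was 0.938 between the ATPS libraries and 0.982 between the VC libraries, and 0.930 to 0.955 between a library of each. Over the 110 miRNAs it was 0.837 within ATPS, 0.920 within VC and 0.828 to 0.850 between the methods. Over the 774 circRNA entries it was 0.996 within ATPS, 0.995 within VC and 0.958 to 0.968 between the methods. These are correlations across RNA species, which are not independent replicates.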

How the data were processed

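Small RNA libraries of PC3 and MDA-231 EVs and cells were made by the authors with a NEBNext small RNA kit. Per the study's methods, the authors filtered reads by quality, kept short reads, aligned them to hg38 with STAR, gave unique reads more weight than multimapping ones and annotated small RNAs with COMPSRA; none of the sources used here gave versions. The deposited values are named TPM by the authors and equal reads of 1 RNA class scaled to the same total in each library (CPM). Whole reads were recovered for 100% of values (within 0.1 of a read), with 4612 to 14612 miRNA reads in the 4 libraries compared.

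The deposited TPM values of the 12 EV libraries were fitted as 6 group means with limma 3.58.1 in R 4.3.3 (trend and robust), on log2(TPM + 100) for miRNAs, log2(TPM + 10) for snoRNAs and log2(TPM + 1) for circRNAs, so that 6 residual degrees of freedom remained. Entries needed at least 10 reads over the 4 PC3 libraries, or, for circRNAs, at least 1 TPM in 2 of them. P-values were adjusted within each class by the Benjamini-Hochberg method over 110, 241 and 774 entries, at a threshold of 0.05. The difference between the lines was a contrast of the same fit. edgeR 4.0.16 (TMM, quasi-likelihood) and DESeq2 1.42.0 served as alternative tests of the whole reads, beside other pseudocounts, filters, scalings, sets of libraries, a replicate block and each library left out. Library-level values were compared with exact two-sided permutation tests. The script was tested on simulated data.

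The species named were the largest changes among eligible entries called without overlap, with at most 4 circRNA entries. For circRNAs, 7 entries called higher and 61 called lower were eligible. Also named were the 12 most abundant of each class, those seen with a single method, the 5 most abundant of each list and a few fixed miRNAs. Exceptions are marked in the text. The comparison and the lists were chosen with earlier results of these data known.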

Additional observations from a re-analysis of the deposited data

Results flagged for a closer look

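The fold change of SNORA66 between ATPS and VC EVs differed between the lines, which is why it is listed here. The difference, PC3 minus MDA-231, was -2.73 on the log2 scale (SE 0.50, adjusted p = 0.00588 by limma). SNORA66 had 883 and 1012 TPM in PC3 ATPS, against 3874 and 3662 TPM in PC3 VC, and 7477 and 4646 TPM in MDA-231 ATPS, against 2705 and 4533 TPM in MDA-231 VC. The PC3 groups did not overlap. Over 23 alternatives the difference stayed between -3.10 and -2.36, with adjusted p between 1.92e-05 and 0.0565.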

How the results depend on the processing

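The counts of calls depended on which libraries set the spread. The miRNA calls, 2 in all, became 1 with all 16 libraries, 7 with the 4 compared libraries and 1 by DESeq2, and 1 to 4 with 1 library left out. The single snoRNA call became 2 with a pseudocount 5 times larger or no filter, 33 with the 6 PC3 EV libraries, 36 with the 4 libraries, 0 after median centring, and 0 to 4 with 1 library left out. The 273 circRNA calls became 1036 without a filter, 136 with a filter 5 times stricter, 83 with all 16 libraries, 490 with 6, 484 with 4 and 86 by edgeR, and 121 (without VC 1) to 343 with 1 library left out; without ATPS 2 there were 147.

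For differences between the lines, the snoRNA count of 1 became 6 after quantile normalization and 13 by DESeq2, and 0 to 14 with 1 library left out. The circRNA count of 0, beside 154 at an unadjusted p under 0.05, became 106 with the larger pseudocount, 2731 without a filter, 23 with the stricter one, 39 after median centring, 54 after quantile normalization, 39 by edgeR, 54 by DESeq2 and 71 with totals that left out the 8 leading entries, and 0 to 143 with 1 library left out.

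The replicate numbers were not taken to pair the libraries: deviations of same-numbered PC3 libraries correlated at 0.07, -0.05 and -0.16 for miRNAs, snoRNAs and circRNAs, and those of MDA-231 at 0.21, 0.57 and 0.74, with 2 pairs in each line and no label that ties a number to a shared batch. With a replicate block the calls were 5, 15 and 448, and 19 snoRNA and 236 circRNA differences between the lines passed. With the PC3 numbers crossed, the calls were 4, 15 and 434, and 1, 17 and 232 differences passed. The crossed block, the totals without the 8 entries and the H/ACA share without SNORA66 were chosen after seeing the data.

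The difference in miRNA species number, -92, reversed to 3.67 after thinning and was -53 for at least 3 reads. The snoRNA difference of -42 became -16.6 after thinning. The circRNA difference of -21796.5 became -18219 after thinning, -15378 after thinning without the 8 entries and -11146.5 for at least 3 reads. The hairpin share difference of -7.51 points became -1.22 without hsa-mir-21, and the H/ACA share difference of -0.494 points became -0.212 without SNORA66. With 1 library left out, the differences lay between -105 and -79 (miRNA number), -48 and -36 (snoRNA number), -22685 and -20908 (circRNA number), -8.82 and -6.20 (hairpin share) and -0.676 and -0.311 (H/ACA share). The causes were not tested. With 4612 miRNA reads, 1 read is 217 TPM, which limits what low miRNAs can show.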
